A study of Mus musculus with 40 samples.

Results

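The aldehyde dehydrogenases (Aldh), hydroxysteroid dehydrogenases (Hsd), steroid 5-alpha-reductases (Srd5a) and aldo-keto reductases of family 1 (Akr1) were examined in kidneys and aortas of mice with and without EGFR in endothelial cells. Members were the protein-coding genes whose symbols carry these family names, without Akr1a1, that had a mean of at least 0.5 CPM over the libraries of a tissue, where CPM is a count scaled in the usual way to the total of its library. In kidney, 46 of the 55382 listed genes met this rule, of which 19 were Aldh, 11 Hsd, 3 Srd5a and 13 Akr1 genes. In aorta, 33 of 55335 genes met it, with 17 Aldh, 6 Hsd, 2 Srd5a and 8 Akr1 genes. Together these were 48 genes, of which 31 were members in both tissues, 15 in kidney only and 2, Akr1cl and Aldh3a1, in aorta only. Next to the minimum, Hsd17b1 (0.561 CPM) was just inside and Akr1c20 (0.436 CPM) just outside in kidney, and Akr1c18 (0.564 CPM) just inside and Akr1c19 (0.285 CPM) just outside in aorta.

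These enzymes move hydrogen between a nicotinamide cofactor and a carbonyl or hydroxyl group. Aldehyde dehydrogenases oxidise aldehydes to acids and so remove products of lipid peroxidation, alcohol and amino acid breakdown, and some of them make retinoic acid from retinaldehyde. Hydroxysteroid dehydrogenases, 5-alpha-reductases and many aldo-keto reductases switch glucocorticoids, androgens and progestins between active and inactive forms within the tissue, and aldose reductase turns glucose into sorbitol. In the kidney, most of these reactions are known from the tubules.

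RNA was sequenced from 40 libraries, 5 for each genotype and diet in each tissue. EC-EGFR-KO mice (KO) carried EGFR flox/flox alleles and the Cre transgene B6.Cg-Tg(Tek-cre)1Ywa, which the Tie2 promoter drives in endothelial cells, on a C57BL/6 background. The wild-type controls (WT) carried the same Cre without loxP sites, so every group had Cre. HFD supplied 60% of energy from fat and the standard diet, SD in the labels and SFD here, 10%. It was given alone for 18 weeks from an age of 6 weeks, after a week of both diets mixed. Kidneys and aortas were taken whole, the aortas freed of fat, so that most of their RNA comes from tubule or smooth muscle cells, which this promoter does not target.

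Total counts were 19643033 to 48833447 per kidney library and 17520161 to 36452741 per aorta library. Levels are given in FPM, the CPM of TMM-normalized libraries. Egfr, whose floxed exon is only part of the counted gene and which cells other than endothelium express, stood at 56.3 ± 5.8 FPM (SD, n = 5) in WT SFD and 53.0 ± 4.33 FPM in KO SFD kidneys, and at 39.6 ± 8.93 and 44.0 ± 5.69 FPM in aortas. Kidney libraries a1 (KO HFD) and a12 (WT HFD) were closer to each other than counting noise alone makes a pair of libraries, with a median chi-square of 0.0269 per gene where noise gives 0.455, and so were aorta libraries R-1 (WT SFD) and R-12 (KO SFD) at 0.0277. The next closest pairs stood at 1.62 in kidney and 1.6 in aorta, and the same 10 and 9 members were called below when a1 and a12 were left out. Kidneys a8, a9 and a17, all on SFD, had high immediate-early genes. Genes on chromosome 8 beyond a start at 97876154, and all on chromosomes 9, X, Y and MT, are listed at 0 in every library. This holds Aldh1a2, Hsd11b2, Hsd17b2 and Hsd17b10, which are listed at 0 and were not analysed here. Proximal tubule markers summed to 11800 to 15300 FPM over all kidneys, and smooth muscle markers, with Cnn1 and Tagln in the stretch listed at 0, to 24900 to 40200 FPM over all aortas.

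On SFD, the kidney held its most abundant members per length in the Akr1 and Hsd families. Akr1c21, which acts on the hydroxyl groups of androgens and progestins, stood first at 1180 ± 192 FPM per kb of exon (SD, n = 5, WT SFD). Hsd3b4, a ketosteroid reductase of mouse kidney, followed at 329 ± 63.6 FPM per kb and Aldh2, the mitochondrial enzyme of acetaldehyde oxidation, at 202 ± 22 FPM per kb. The ranges of these first 3 did not overlap. From rank 3 to rank 12, which closed with Aldh4a1 of proline breakdown at 76.0 ± 10.3 FPM per kb, each neighbouring pair overlapped. Hsd3b1 and Hsd3b6, the isoforms of steroid-producing cells, were below the minimum in kidney, at no more than 0.729 and 0.716 FPM in any library. Adrenal cortex markers summed to 3.18 to 5.38 FPM in kidney, with Cyp11b2 at 0 counts and Cyp11a1 in the stretch listed at 0.

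The comparison of HFD with SFD in WT kidneys asked which genes the diet moved. In WT, 10 of the 46 members were called, that is, had an adjusted p under 0.05, changed more than 1.5-fold and exceeded 5 FPM in the mean of either group, with 3 higher and 7 lower on HFD. Among all 15943 genes tested the share was 2.18%, with 1.27% higher and 0.909% lower, against 21.7% of the members. Steroid enzymes made up most of the lower genes: Srd5a2, Hsd11b1, Hsd17b11, Hsd3b2, Akr1c14 and Akr1d1, with aldose reductase Akr1b3. The higher genes were Aldh1a1, Aldh1a7 and Akr1b8. By family, 2 of 19 Aldh genes rose and 0 fell, 0 of 11 Hsd genes rose and 3 fell, 0 of 3 Srd5a genes rose and 1 fell, and 1 of 13 Akr1 genes rose and 3 fell. These are calls only, and the Aldh family as a whole was not higher on HFD. Its median log2 fold change was -0.144, with 13 of 19 genes lower. The Aldh genes summed to 4791 to 5530 FPM in WT SFD and 4425 to 4655 FPM in WT HFD. In KO they summed to 4777 to 5278 FPM on SFD and 4560 to 4730 FPM on HFD. The median log2 fold change of the members was -0.124 against -0.000252 over all genes, and the median size of the change was 0.263 against 0.162. Without regard to any test, 30 members (65.2%) had a lower mean on HFD, against 50.1% of all genes. The groups did not overlap in 11 members, against 6.64% of all genes, with 8 members lower (3.64% of all genes) and 3 higher (3%).

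In KO kidneys, 9 of 46 members passed, with 4 higher and 5 lower, against 2.16% of all genes, 1.23% higher and 0.928% lower. Of these, 8 were called in WT as well, which is 80.0% of the WT calls and 88.9% of the KO calls. Akr1b3 and Hsd3b2 passed in WT alone and Aldh3b1 in KO alone. The groups did not overlap in 12 members, against 7.81% of all genes, with 5 members higher (3.74%) and 7 lower (4.07%). A lower mean on HFD was seen in 29 members (63%), against 50.2% of all genes. The summed level of all 46 members was 9735 ± 813 FPM in WT SFD and 8002 ± 319 FPM in WT HFD (SD, n = 5), ranging from 8963 to 10770 and from 7703 to 8419. In KO it was 9563 ± 255 FPM on SFD and 8264 ± 218 FPM on HFD. The sums of the diets did not overlap in either genotype. The WT and KO comparisons share no library by label, but a1 and a12 place nearly the same counts in both HFD groups.

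**Figure D1:**
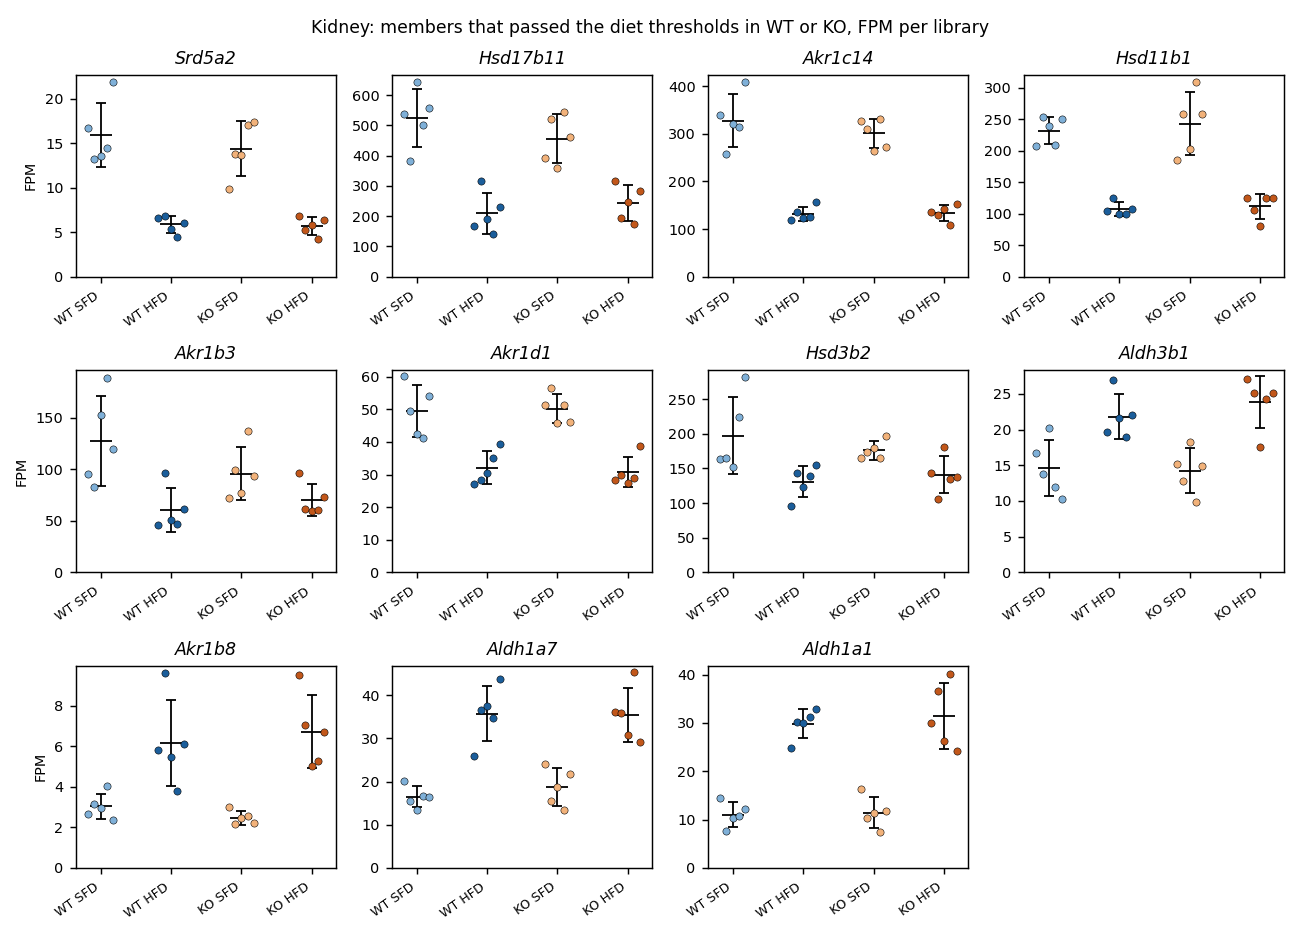
FPM per library (points) in the 4 kidney groups for the 11 members that passed the diet thresholds in WT or KO, with mean and SD of 5 libraries (bars). From Srd5a2 to Hsd3b2 the HFD groups lie lower, and from Aldh3b1 to Aldh1a1 they lie higher. Srd5a2, Hsd17b11, Akr1c14, Hsd11b1, Akr1d1, Aldh1a7 and Aldh1a1 show no overlap between diets in either genotype.

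Androgen and glucocorticoid enzymes were read first. Srd5a2 (ENSMUSG00000038541, chromosome 17, 74016955 to 74047916, GRCm38), the enzyme that turns testosterone into dihydrotestosterone, had 16.7, 13.2, 13.5, 14.4 and 21.8 FPM in the WT SFD kidneys and 6.65, 6.86, 5.38, 4.51 and 6.03 FPM in the WT HFD kidneys. In KO it had 9.87, 13.8, 13.7, 17.1 and 17.4 FPM on SFD and 6.80, 5.27, 5.77, 4.2 and 6.40 FPM on HFD. Every HFD kidney lay below every SFD kidney in both genotypes. Srd5a2 fell by 1.44 on the log2 scale in WT (SE 0.176, adjusted p = 3.19e-05, edgeR quasi-likelihood test with Benjamini-Hochberg adjustment, as for all tests here) and by 1.33 in KO (SE 0.176, adjusted p = 6.74e-05). The other members of its family were not called. Srd5a1, the other 5-alpha-reductase of androgens, had log2 fold changes of -0.16 and -0.26, and Srd5a3, a polyprenol reductase of protein glycosylation, 0.25 and 0.06.

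Hsd11b1 (ENSMUSG00000016194, chromosome 1, 193221634 to 193264075) regenerates active corticosterone inside cells. It had 208, 254, 239, 209.7 and 250.1 FPM in WT SFD and 105, 125, 100.1, 99.4 and 107 FPM in WT HFD kidneys. The KO values were 185, 258, 204, 309.6 and 259 FPM on SFD and 125, 105, 80.2, 125 and 125 FPM on HFD. The diets were separated in both genotypes, and all 5 WT HFD values lay within 99.4 to 125 FPM. Its log2 fold change was -1.11 in WT (SE 0.134, adjusted p = 2.95e-05) and -1.11 in KO (SE 0.134, adjusted p = 2.31e-05). Of its partners, the receptor genes Nr3c1 and Nr3c2 and H6pd, which supplies its cofactor, are in the list of pathway genes given further on and did not pass.

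Hsd17b11 (ENSMUSG00000029311, chromosome 5, 103989762 to 104021919), a lipid droplet enzyme that oxidises androstanediol, had 538, 382, 643, 501 and 558 FPM in WT SFD kidneys and 167, 318, 192, 141 and 230 FPM in WT HFD kidneys. In KO, SFD kidneys had 391, 522, 359, 543 and 463 FPM and HFD kidneys 318, 194, 247, 174 and 284 FPM. The diets did not overlap, although a1 and a12, the near-identical libraries, were the highest of their HFD groups at 318 FPM each. Hsd17b11 fell by 1.32 in WT (log2, SE 0.206, adjusted p = 4.17e-04) and by 0.90 in KO (SE 0.204, adjusted p = 0.0088). Without a1 and a12 the log2 fold changes were -1.52 and -1.02.

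Akr1c14 (ENSMUSG00000033715, chromosome 13, 4049011 to 4090688) reduces dihydrotestosterone and other ketosteroids. It stood at 338, 257, 320.1, 314 and 409 FPM in WT SFD kidneys and at 119, 135, 123, 126 and 156 FPM in WT HFD kidneys. In KO, the values were 327, 310.1, 263, 331 and 272 FPM on SFD and 136, 129.8, 142, 108 and 152 FPM on HFD. The lowest SFD kidney, at 257 FPM, was well above the highest HFD kidney, at 156 FPM. It had the smallest adjusted p of the members, with log2 fold changes of -1.31 in WT (SE 0.115, adjusted p = 6.39e-07) and -1.17 in KO (SE 0.115, adjusted p = 2.39e-06). Its relatives Akr1c21, the most abundant, and Akr1c18, which inactivates progesterone, were not called. Akr1c21 had 1770 ± 289 FPM on SFD and 1490 ± 114 FPM on HFD in WT (SD, n = 5), a log2 fold change of -0.26. Akr1c18 had 7.04 to 19.9 FPM on SFD and 1.94 to 9.34 FPM on HFD in WT, a log2 fold change of -1.12 with a wide error (SE 0.508, adjusted p = 0.231).

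Akr1d1 (ENSMUSG00000038641, chromosome 6, 37530173 to 37568815), the 5-beta-reductase of bile acid and steroid breakdown, had 60.4, 49.6, 42.5, 41.4 and 54.2 FPM in WT SFD and 27, 28.4, 30.6, 35 and 39.3 FPM in WT HFD kidneys. In KO it had 51.2, 56.5, 45.9, 51.3 and 46.3 FPM on SFD and 28.5, 29.9, 27.5, 28.9 and 38.7 FPM on HFD. The diets were apart in both genotypes, by a narrow margin in WT. Its log2 fold change was -0.63 in WT (SE 0.121, adjusted p = 0.00258) and -0.71 in KO (SE 0.122, adjusted p = 8.6e-04). Without a11 or without a16 the WT value was -0.57 or -0.55, below the threshold on fold change.

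Hsd3b2 (ENSMUSG00000063730, chromosome 3, 98709255 to 98724543) belongs to the enzymes that act on pregnenolone and related steroids. It had 164, 165, 152, 224 and 283 FPM in WT SFD and 95.3, 143, 123, 139.8 and 155 FPM in WT HFD kidneys. The ranges touched, with the highest HFD kidney at 155 FPM above the lowest SFD kidney at 152 FPM. It fell by 0.59 in WT (log2, SE 0.163, adjusted p = 0.0313), and its log2 fold change in KO was -0.32 (SE 0.163, adjusted p = 0.285). The WT call was lost without a11, a13, a14, a19 or a20, one at a time, with adjusted p up to 0.0997. The Hsd3b2 and Hsd3b3 transcripts were 93.2% identical over 1491 bases, so reads could be split between them in counting, and Hsd3b3 had log2 fold changes of 0.00 in WT and -0.05 in KO. Hsd3b4, the most abundant Hsd gene, had -0.17 and -0.25, and Hsd17b7 of cholesterol synthesis -0.12 and -0.15, none of which passed.

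The called Aldh genes moved the other way. Aldh1a1 (ENSMUSG00000053279, chromosome 19, 20492715 to 20643465), which makes retinoic acid, had 14.4, 7.55, 10.3, 10.7 and 12.2 FPM in WT SFD kidneys and 24.8, 30.1, 29.99, 31.3 and 32.8 FPM in WT HFD kidneys. In KO it had 16.4, 10.2, 11.4, 7.51 and 11.7 FPM on SFD and 29.9, 36.7, 26.2, 40.2 and 24.3 FPM on HFD. Every HFD kidney was above 24 FPM and every SFD kidney below 17 FPM. It rose by 1.43 in WT (log2, SE 0.185, adjusted p = 5.44e-05) and by 1.46 in KO (SE 0.186, adjusted p = 4.34e-05).

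Its neighbour Aldh1a7 (ENSMUSG00000024747, chromosome 19, 20692953 to 20727562, on the opposite strand), a close relative known to act little on retinaldehyde, had 20.2, 15.6, 13.4, 16.7 and 16.4 FPM in WT SFD and 26.0, 36.5, 37.6, 34.7 and 43.8 FPM in WT HFD kidneys. The KO values were 24.1, 15.5, 18.7, 13.4 and 21.7 FPM on SFD and 36.2, 35.97, 30.8, 45.3 and 29.1 FPM on HFD. The diets did not overlap in either genotype. Aldh1a7 rose by 1.12 in WT (log2, SE 0.162, adjusted p = 1.81e-04) and by 0.93 in KO (SE 0.162, adjusted p = 9.82e-04). The longest transcripts of Aldh1a1 and Aldh1a7 were 88.8% identical over 2036 bases, so part of the counts of each may come from the other.

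Upstream sequence was read for the called members, since Aldh1a1 and Aldh1a7 moved together and Hsd11b1 moved the other way. RefSeq held start sites (GRCm38.p6) for 38 of the 48 members and for 10 of the 11 called in kidney, without Akr1b3, and the 250 bases before each start were searched on both strands. The bases of Aldh1a1 (chr19:20601718-20601967, plus strand, at the second of its RefSeq starts), Aldh1a7 (chr19:20727557-20727806, minus strand) and Hsd11b1 (chr1:193242361-193242610, minus strand) are given 5′ to 3′, with capitals that mark CCAAT on either strand, and likewise the letters TATAAA and the motif TGACNNNGC.
Aldh1a1: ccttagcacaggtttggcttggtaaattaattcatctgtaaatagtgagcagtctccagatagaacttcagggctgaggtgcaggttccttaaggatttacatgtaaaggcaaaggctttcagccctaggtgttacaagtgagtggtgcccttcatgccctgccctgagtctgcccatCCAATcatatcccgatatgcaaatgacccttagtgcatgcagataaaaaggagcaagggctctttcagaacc
Aldh1a7: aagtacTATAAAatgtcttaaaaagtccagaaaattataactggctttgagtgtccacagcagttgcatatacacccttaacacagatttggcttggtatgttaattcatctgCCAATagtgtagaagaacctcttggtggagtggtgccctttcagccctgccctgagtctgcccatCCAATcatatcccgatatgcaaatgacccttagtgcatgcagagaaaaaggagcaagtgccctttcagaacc
Hsd11b1: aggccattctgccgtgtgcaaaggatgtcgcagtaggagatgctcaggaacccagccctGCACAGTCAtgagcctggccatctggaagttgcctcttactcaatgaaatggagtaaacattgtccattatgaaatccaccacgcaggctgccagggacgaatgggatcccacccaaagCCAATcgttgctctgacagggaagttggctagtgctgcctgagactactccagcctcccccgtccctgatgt
Over 260 aligned positions, 67.7% were identical between the windows shown of Aldh1a1 and Aldh1a7. No other pair of windows of called members reached more than 53.9%, the value for Aldh1a7 and the other Aldh1a1 window. The windows shown of Aldh1a1, Aldh1a7 and Hsd11b1 all held CCAAT at -72 to -68 from the start, although the first pair rose and the last fell. The Aldh1a1 start shown lies 109253 bases from the annotated gene start. The other lies 132 bases from it, and its window held none of the motifs searched. The Hsd11b1 start shown lies 21715 bases from the annotated start of its gene, and that of Aldh1a7 lies 6 bases from its own. CCAAT was found before 23 of the 38 members (60.5%), several of which had more than 1 window, and in 33.8% of all 32851 promoters of this length. GGGCGG was in 15 members (39.5%) and 32.7% of promoters, and TATAAA in 3 members (7.89%) and 12.4%. TGACNNNGC, the core of the antioxidant response element, was in 4 members (10.5%) and 10.2% of promoters, and the E-box CACGTG in 5 members (13.2%) and 6.02%. AGAACA, a single arm of the steroid receptor element, was in 5 members (13.2%) and 16.1% of promoters, with Hsd3b2 the 1 called member among them. The full steroid receptor element and the HNF1 site, each in 0.00913% of promoters, and the DR1 element, in 0.0335%, were found before none of the 38.

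Aldh3b1 (ENSMUSG00000024885, chromosome 19, 3913491 to 3929808), which oxidises aldehydes from membrane lipids, had 15.2, 12.9, 18.3, 9.86 and 14.9 FPM in KO SFD and 27.1, 25.2, 17.6, 24.2 and 25.1 FPM in KO HFD kidneys. All but a3 of the KO HFD kidneys were above every KO SFD kidney. It rose by 0.74 in KO (log2, SE 0.176, adjusted p = 0.0116), a call lost with a clock gene score as covariate (adjusted p = 0.0611). In WT it had a log2 fold change of 0.58 (SE 0.175, adjusted p = 0.0491), with a fold of 1.498 just under the threshold. Aldh2, the most abundant Aldh gene, had 202 ± 22 FPM per kb on SFD and 200 ± 12.3 FPM per kb on HFD in WT (SD, n = 5). Its log2 fold change was -0.01 in WT (95% interval -0.19 to 0.162) and -0.07 in KO (-0.246 to 0.106). Aldh1a3, the other retinoic acid enzyme measured, had a median of 0.944 FPM in WT SFD and 1.28 FPM in WT HFD and was not called.

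Aldose reductase and its relative moved in opposite directions. Akr1b3 (ENSMUSG00000001642, chromosome 6, 34302434 to 34317478), the first enzyme of the polyol pathway, had 95.1, 82.5, 153, 189 and 119.8 FPM in WT SFD and 45.8, 96.5, 51.1, 46.6 and 62.0 FPM in WT HFD kidneys. In KO, SFD kidneys had 72.7, 99.6, 77.2, 137 and 93.4 FPM and HFD kidneys 96.4, 61.2, 59.2, 60.4 and 73.5 FPM. The diets overlapped in WT through a12, the highest HFD kidney at 96.5 FPM, and in KO through a1 at 96.4 FPM and by a narrow margin through a5 at 73.5 FPM. Akr1b3 fell by 1.08 in WT (log2, SE 0.247, adjusted p = 0.0107), and had a log2 fold change of -0.45 in KO (SE 0.246, adjusted p = 0.329). Without a1 and a12 these were -1.31 and -0.59, and the WT call was lost when the compared groups were fitted alone (adjusted p = 0.0531).

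Akr1b8 (ENSMUSG00000029762, chromosome 6, 34354119 to 34368463), an aldehyde reductase that growth factors induce, had 2.66, 3.13, 2.97, 4.03 and 2.36 FPM in WT SFD and 5.81, 9.60, 5.46, 3.77 and 6.11 FPM in WT HFD kidneys. The KO kidneys had 2.99, 2.14, 2.47, 2.56 and 2.20 FPM on SFD and 9.51, 7.03, 5.03, 5.25 and 6.68 FPM on HFD. The diets were apart in KO and overlapped in WT through a14 at 3.77 FPM, and a1 and a12 were the highest. Its log2 fold change was 1.02 in WT (SE 0.219, adjusted p = 0.00608) and 1.44 in KO (SE 0.224, adjusted p = 3.54e-04), and 0.80 and 1.28 without a1 and a12. Its transcript was 86.3% identical to that of Akr1b7 over 930 bases and 80.0% to that of Akr1b10 over 1247 bases.

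Changes under the 1.5-fold threshold added further members. By adjusted p alone, 16 members passed in WT, 5 higher and 11 lower, and 14 in KO, 6 higher and 8 lower, where 6.71% (3.03% higher, 3.68% lower) and 6.35% (3.16% higher, 3.19% lower) of all genes did. The additional genes were named after their values were seen. They include Aldh1l1 of folate metabolism, with log2 fold changes of -0.51 in WT (SE 0.111, adjusted p = 0.00703) and -0.54 in KO, and Aldh9a1 of carnitine synthesis, with -0.36 in both (SE 0.0613, adjusted p = 9.34e-04 in WT). Aldh3a2, the fatty aldehyde dehydrogenase, had -0.44 in WT (SE 0.0734, adjusted p = 7.14e-04) and -0.25 in KO. The remaining ones were Aldh3b1, Aldh5a1 (-0.27) and Srd5a3 (0.25) in WT, and Akr1b10 (0.40) and Hsd17b12 (0.21) in KO.

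**Figure D2:**
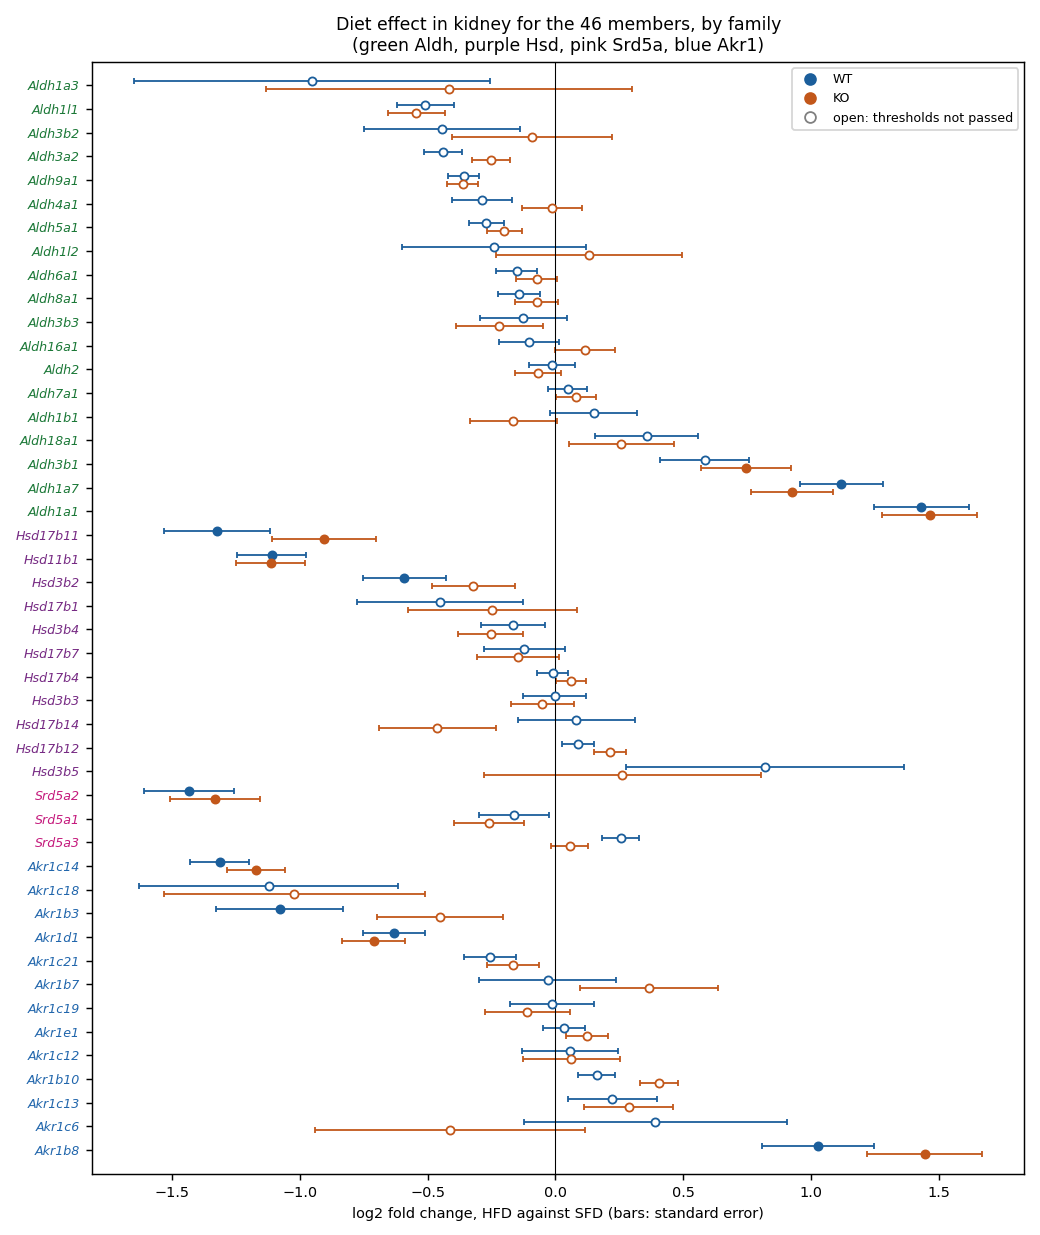
Log2 fold change of HFD against SFD (x axis, bars are standard errors) for all 46 kidney members by family, WT in blue and KO in orange, with filled points for members past the diet thresholds. Filled points lie to the left in the Hsd and Srd5a families and to the right among Aldh genes, while Akr1 genes have both. Of all 19 Aldh genes, filled or open, 13 lie below 0 in WT and 12 in KO.

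Pathway genes around these enzymes were counted from a list of 45 alcohol dehydrogenases, retinoid and steroid receptors, binding proteins and fatty acid enzymes, of which 32 of the 33 that could be tested in kidney are counted here. Of these 32, 2 fell in WT and 1 in KO, and 0 rose in either. Ehhadh of peroxisomal fatty acid oxidation fell by 0.61 in WT (log2, SE 0.102, adjusted p = 7e-04) and by 0.68 in KO (SE 0.102, adjusted p = 2.57e-04). Adh1, which makes retinaldehyde and oxidises ethanol, fell by 0.64 in WT (SE 0.132, adjusted p = 0.00438). The median log2 fold change of the 32 genes was -0.103 in WT and -0.0481 in KO.

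Genes that differ between male and female mouse kidneys moved with the diet as well, and the sex of the animals is not given in the sources used here. Of 9 male-biased genes, 5 fell in WT (Kap, Slco1a1, Acsm3, Cyp2e1 and Cndp2) and 4 in KO (the same without Kap), and their summed level was 30200 to 55500 FPM in WT SFD against 17800 to 27200 FPM in WT HFD. In KO it was 33700 to 40800 FPM against 22000 to 29000 FPM. Of 8 female-biased genes tested, 4 rose in WT (Slc7a12, Cyp4a14, Prlr and Slc22a29) and 3 in KO, with Gsta2 listed at 0. Adjusted p alone also put 1 of them lower in WT. The summed level of the female-biased genes did not rise. It was 2280 to 3480 FPM in WT SFD and 2080 to 2510 FPM in WT HFD. In KO it was 2560 to 3040 FPM on SFD and 2010 to 2760 FPM on HFD. Of 10 proximal tubule genes, 1 rose in WT, while 2 rose and 1 fell in KO, and their sum was 13100 to 15300 FPM in WT SFD and 12400 to 13700 FPM in WT HFD. By adjusted p alone, 2 of these tubule genes were higher and 3 lower in each genotype. Their sum in KO was 11800 to 14900 FPM on SFD and 13100 to 13900 FPM on HFD. The 8 adipocyte genes summed to 1950 to 3800 FPM in WT SFD and 2870 to 4610 FPM in WT HFD, with Pck1, also a tubule gene, as most of it, and 0 were called in WT and 2 rose in KO. In KO they summed to 1780 to 3180 FPM on SFD and 3060 to 4110 FPM on HFD. The median log2 fold change of the adipocyte genes was -0.276 in WT and 1.86 in KO. Their marker Adipoq ranged from 0.262 to 10.4 FPM in WT SFD and from 1.14 to 8 FPM in WT HFD kidneys. The part of these genes in the result was not tested, and in whole organs fewer cells of a type and less RNA per cell cannot be told apart.

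Loss of endothelial EGFR was tested under each diet. In kidney, 0 of 46 members and 0% of all genes had an adjusted p under 0.05 under SFD, under HFD or in the interaction of diet and genotype, with edgeR and with DESeq2. The near-identical a1 (KO HFD) and a12 (WT HFD) draw the comparison under HFD and the interaction towards no difference. Without them, 0 members were called as well. An unadjusted p under 0.05 was reached by 2 members under SFD (2.67% of all genes), 0 under HFD (3.42%) and 1 in the interaction (1.79%). The smallest was that of Aldh3a2 under SFD, with 318 ± 12.6 FPM in WT and 275 ± 15.2 FPM in KO (SD, n = 5), ranging from 304 to 337 and from 248 to 285 FPM. These groups did not overlap, as in 0.464% of all genes (0.282% lower), and the log2 fold change was -0.21 (SE 0.0733, adjusted p = 1). Under SFD, 27 members had a lower mean in KO, against 52% of all genes. Under HFD no member's groups were apart, against 0.0878% of all genes higher and 0.0878% lower. With the near-identical a12 and a1 on opposite sides, these groups could hardly be apart, so this count is no result about genotype. Srd5a3 (0.15) and Hsd17b14 (0.43) followed under SFD, and Aldh4a1 (0.19), Akr1b10 (0.11) and Hsd17b12 (0.09) had the smallest p under HFD, at an adjusted p of 0.814.

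For the genes called in 1 genotype only, the difference between genotypes was tested as the interaction. It was 0.63 for Akr1b3 (log2, 95% interval -0.0518 to 1.31), 0.27 for Hsd3b2 (-0.18 to 0.719) and 0.16 for Aldh3b1 (-0.322 to 0.645), each with an adjusted p of 1. The intervals of Hsd17b11 (0.42, -0.143 to 0.981) and Akr1b8 (0.42, -0.188 to 1.03) held 0 as well. The smallest unadjusted p of the interaction belonged to Akr1b10, at 0.24 (SE 0.103, adjusted p = 1), and Srd5a3 (-0.20) and Aldh3a2 (0.19) followed.

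In aorta the members were fewer and lower. Aldh2 stood first by length at 124 ± 11.2 FPM per kb of exon (SD, n = 5, WT SFD), apart from all others, and Hsd17b11, Hsd17b12 of fatty acid elongation and Hsd17b4 of peroxisomal oxidation followed at 28.1 ± 2.49, 27.7 ± 4.23 and 26.0 ± 2.18 FPM per kb with overlapping ranges. Akr1b3 led its family at 16.2 ± 3.45 FPM per kb and Srd5a3 its own at 3.57 ± 0.393 FPM per kb. The summed level of the 33 members was 1639 ± 78.6 FPM in WT SFD, 1622 ± 117 FPM in WT HFD, 1561 ± 80.7 FPM in KO SFD and 1556 ± 55.7 FPM in KO HFD (SD, n = 5). The 4 groups overlapped.

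No aortic member was called in any of the 5 comparisons, by edgeR or by DESeq2. All genes gave 0.00661% called for HFD in WT (0.0132% by adjusted p alone) and 0% in each of the others. The near-identical R-1 (WT SFD) and R-12 (KO SFD) draw KO against WT under SFD and the interaction towards no difference. Without them, 0 members were called as well. For HFD in WT, 5 of 33 members had an unadjusted p under 0.05, against 2.61% of all genes, and each had a negative log2 fold change. For HFD in KO it was 1 (4.56% of all genes), for KO under SFD 1 (2.28%), for KO under HFD 0 (5.85%) and for the interaction 0 (0.84%).

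Aldh1l1 had 5.85, 8.69, 4.23, 5.91 and 4.47 FPM in WT SFD aortas and 3.57, 2.75, 5.24, 3.46 and 3.80 FPM in WT HFD aortas. In KO it had 3.81, 5.99, 4.2, 4.51 and 4.74 FPM on SFD and 3.49, 3.75, 3.04, 3.62 and 3.21 FPM on HFD. The KO groups did not overlap, as in 0.721% of all genes, while the WT groups did through R-8 at 5.24 FPM. Its log2 fold change was -0.63 in WT (SE 0.201, adjusted p = 1) and -0.45 in KO (SE 0.201, adjusted p = 0.987).

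Aldh1a7 was near the minimum in aorta, with 0.928, 1.84, 1.06, 3.10 and 1.18 FPM in WT SFD and 0.906, 0.220, 0.932, 1.28 and 0.117 FPM in WT HFD. In KO it had 0.836, 0.871, 0.450, 0.496 and 0.470 FPM on SFD and 0.546, 0.389, 0.333, 0.373 and 0.148 FPM on HFD. On SFD every WT aorta was above every KO aorta, as in 0.159% of all genes, though R-1 and R-12, the near-identical pair, were close at 0.928 and 0.871 FPM. The log2 fold changes were -1.21 for HFD in WT (SE 0.488) and -1.35 for KO under SFD (SE 0.483, adjusted p = 1). For HFD in WT, Akr1cl, an Akr1c-like gene, had the next smallest p at -0.66 (SE 0.298). Akr1b8 (-0.38) and Akr1c18 (-0.76) followed for HFD in KO, and Aldh1a1 (0.43) and Aldh1l1 (-0.32) for KO under SFD. Akr1cl (0.61), Aldh1a7 (-0.95) and Akr1c18 (0.82) had the smallest p for KO under HFD, with adjusted p from 0.854 to 0.894, and Akr1cl (0.52), Hsd17b1 (-0.56) and Akr1c13 (0.44) in the interaction. Adipocyte markers summed to 192 to 673 FPM in WT SFD and 86.5 to 434 FPM in WT HFD aortas, and to 115 to 341 and 108 to 225 FPM in KO. Their part in these values was not tested. Of the 30 reported pathway genes that could be tested in aorta, 0 passed in any comparison.

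Aorta and kidney were compared in WT mice on SFD in a joint fit of all 40 libraries, in which tissue cannot be told apart from the count table and its sequencing run. The minimum level fixed the direction of the 15 members of kidney only, which were all lower in aorta, and of the 2 members of aorta only, which were both higher, so these are no result of the comparison. Of the 31 members in both tissues, 5 were higher in aorta and 20 lower past an adjusted p of 0.05 and a fold of 2, where 24.8% and 27.2% of all 17514 genes were, 52% together. The median log2 fold change was -2.12 over these 31 and -0.025 over all genes, and library totals in place of TMM moved the latter to 0.222. The 17514 genes did not have to meet the minimum in both tissues, so these shares and medians set unlike sets side by side.

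Several steroid enzymes that met the minimum in kidney only had few or no counts in aorta, which their choice fixes, and their values are a description. Hsd3b4 had 0 counts in the 5 aortas, at least 21100-fold lower than in kidney, where 3 counts over the group were taken as the limit that 0 allows. On the same scale Hsd3b2 was at least 7750-fold, Hsd3b3 at least 3050-fold and Akr1d1 at least 1970-fold lower. Akr1c21 had 13 counts in 5 aortas and 225397 in 5 kidneys, which per library total is a ratio of 16100 (95% Poisson interval 9430 to 30300, counting error only). Srd5a2 had 2 counts in aorta and 2028 in kidney, a ratio of 943 (261 to 7790). These genes could not be followed in aorta on HFD. Hsd11b1 was lower in aorta by a log2 fold change of -3 (SE 0.228, adjusted p = 1.85e-14), at 15.5 to 50.8 FPM in WT SFD aortas.

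Akr1cl and Aldh3a1, an aldehyde dehydrogenase best known from the cornea, met the minimum in aorta only, so that their direction was fixed by their choice. Akr1cl had 144 counts in aorta and 0 in kidney, at least 51.6-fold higher, and Aldh3a1 a log2 fold change of 4.92. Among the members of both tissues, Aldh18a1 of proline synthesis was higher in aorta with a log2 fold change of 3.66 (SE 0.16, adjusted p = 1.39e-21). Aldh1l2, the mitochondrial partner of Aldh1l1, had 2.79 and Akr1b8 2.29. The related genes Aldh1a1 and Aldh1a7 lay on opposite sides, at 1.55 (SE 0.207, adjusted p = 2.58e-08) and -3.56 (SE 0.307, adjusted p = 6.37e-13). Aldh1a3 had 1.58. Aldh2 (-0.91) and Hsd17b12 (-0.80) did not reach a fold of 2, and Srd5a3 (-0.14), Akr1b3 (-0.11), Aldh1b1 (-0.03) and Hsd17b1 (0.15) had adjusted p from 0.146 to 0.89.

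**Figure D3:**
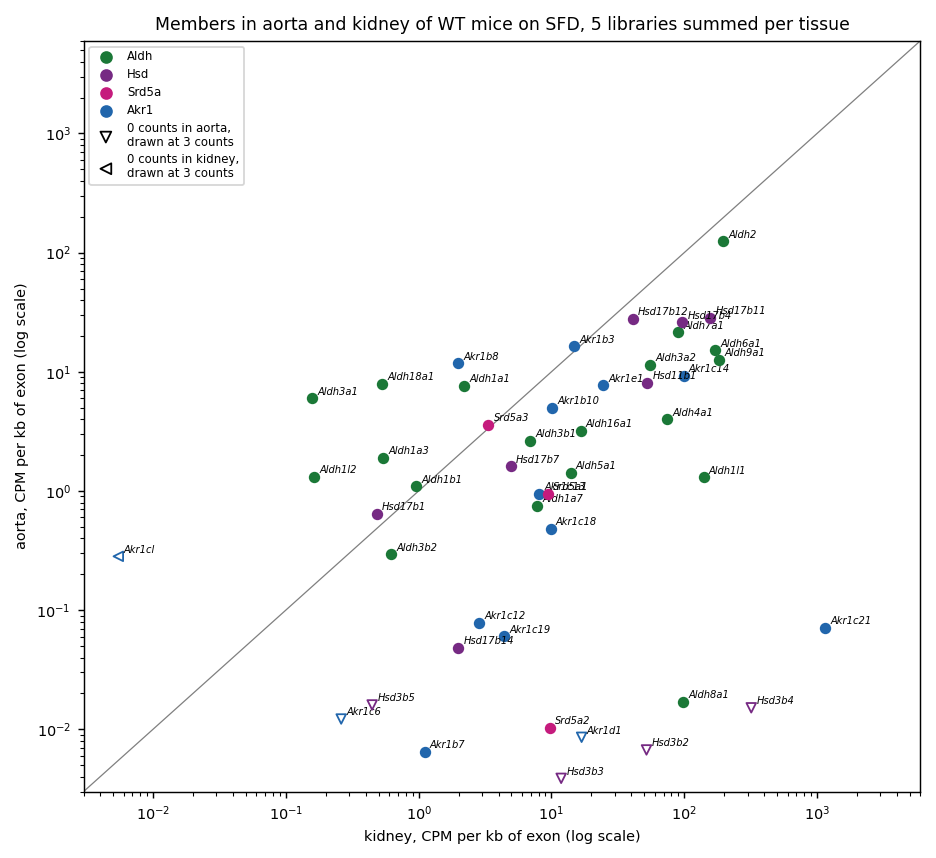
CPM per kb of exon in kidney (x axis) and aorta (y axis) of WT mice on SFD, both on log scales, 5 libraries summed per tissue and 1 point per member, coloured by family, with open triangles drawn at 3 counts for genes with 0. The line marks equal levels; Members of 1 tissue only lie off the line by their choice, 5 members of both tissues above it passed the test, and Hsd3b and several Akr1 genes lie at the bottom right.

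Whether the diet acted differently in the tissues was tested in the same fit, over both genotypes. For 9 of 48 members the diet effect differed (adjusted p under 0.05), with 6 more positive in aorta and 3 more negative, against 6.5% of all genes, 2.53% and 3.97%. None of the 9 was called in aorta, and apart from Aldh1a7 their aortic log2 fold changes lay between -0.38 and 0.18. Aldh1a1 had aortic log2 fold changes of -0.18 in WT (SE 0.208) and -0.36 in KO (SE 0.207), and its effect was lower in aorta than in kidney by a difference of -1.71 (SE 0.203, adjusted p = 5.66e-07). For Aldh1a7 the difference was -2.03 (SE 0.334, adjusted p = 1.31e-04) and for Akr1b8 -1.58 (SE 0.21, adjusted p = 3.44e-06).

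Steroid enzymes differed the other way. Akr1c14 had aortic log2 fold changes of 0.16 and 0.18 and a difference of 1.42 (SE 0.172, adjusted p = 8.03e-07). Hsd11b1 had 0.05 and -0.03 in aorta and a difference of 1.13 (SE 0.213, adjusted p = 7.06e-04). Hsd17b11 differed by 1.05 (SE 0.164, adjusted p = 6.12e-05) and Akr1b3 by 0.85 (SE 0.227, adjusted p = 0.0181). Aldh9a1, named after its value was seen, differed by 0.41 (SE 0.0824, adjusted p = 0.00167) and Aldh3a2 by 0.40 (SE 0.0771, adjusted p = 0.00103). Whether an aorta and a kidney came from 1 animal is not given in the sources used here, and the fit treats all libraries as separate.

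**Figure D4:**
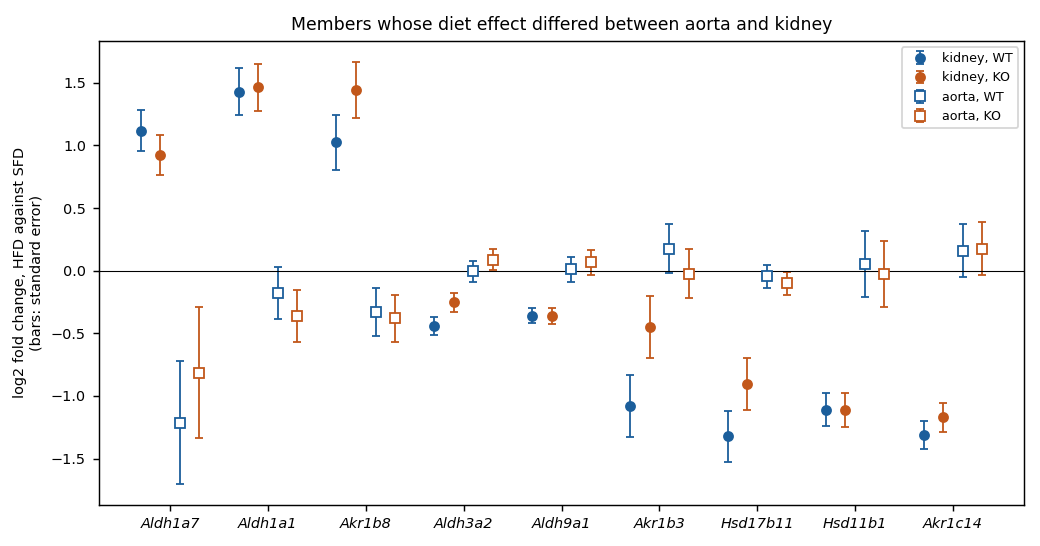
Log2 fold change of HFD against SFD (y axis, bars are standard errors) for the 9 members whose diet effect differed between tissues, with filled circles for kidney, open squares for aorta, blue for WT and orange for KO. Kidney values lie from 0.93 to 1.46 for the first 3 genes and below 0 for the other 6. Aortic values lie between -0.38 and 0.18 except for Aldh1a7.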

How the data were processed

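The authors deposited raw counts per gene for each tissue, whole numbers made with featureCounts on GRCm38/mm10. Per the labels, reads of poly(A)-enriched libraries were mapped with HISAT2 2.1.0, while the methods name TopHat2. How strand and multi-mapping reads were treated is not given in the sources used here. Counts of near-identical genes are therefore uncertain.

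The 20 libraries of each tissue entered 1 fit, by edgeR 4.0.16 under R 4.3.3, using filterByExpr, TMM, robust quasi-likelihood and Benjamini-Hochberg adjustment over 15943 kidney, 15122 aorta or 17514 joint genes. All 46 and 33 members passed the filter. The biological coefficient of variation was 22.3% in kidney and 29.0% in aorta. Diet calls also required a fold change over 1.5 and over 5 FPM. Named genes were called members, the highest of each family, those with the 3 smallest p where under 3 were called, the 5 extremes each way between tissues, and 18 genes with a textbook role. Members and lists were chosen with earlier results of these data known. Transcripts (GENCODE M21) were aligned with blastn 2.17.0. Alternatives were DESeq2 1.42.0, other filters, thresholds and covariates, and leaving out libraries. The fit was tested on simulated data. The labels tell the libraries of a group apart only by number, while the authors count their N in animals or vessels. The p-values measure the spread between these libraries, which by the labels alone may be technical. The result of 1 gene of the pathway list is not reported here, and the counts and medians of that list leave it out.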

Additional observations from a re-analysis of the deposited data

Results flagged for a closer look

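Single kidneys or aortas stood apart from the other 4 of their group by Dixon's test (critical value 0.71) in 10 of 220 groups, where chance gives about 5%. Kidney a9 (KO SFD) was so for 3 genes, with Akr1c21 lowest at 1580 FPM (next 1850), Aldh3a2 lowest at 248 FPM (next 279) and Aldh1a3 highest at 4.83 FPM (next 0.81). Aldh1a3 was also highest in a19 (WT SFD) at 8.21 FPM (next 2.52), and its log2 fold change for HFD in WT went from -0.95 to 0.24 without a19 and in KO from -0.42 to 0.70 without a9, with no call in either. Kidney a3 (KO HFD) was highest for Aldh1l2 at 2.84 FPM (next 1.19) and Hsd17b7 at 31.4 FPM (next 21.2), and a5 (KO HFD) for Akr1d1 at 38.7 FPM (next 29.9). In aorta, Akr1c13 was highest in R-16 (KO HFD) at 2.24 FPM (next 1.12), and Srd5a3 in R-5 (WT SFD) at 19.7 FPM (next 16.4) and in R-20 (KO HFD) at 21.1 FPM (next 16.9).

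The diet effect differed between aorta and kidney for 9 members by the test of the difference in edgeR. On the log2 scale, aorta minus kidney, it was -2.03 for Aldh1a7, -1.71 for Aldh1a1, -1.58 for Akr1b8, 0.398 for Aldh3a2, 0.408 for Aldh9a1, 0.847 for Akr1b3, 1.05 for Hsd17b11, 1.13 for Hsd11b1 and 1.42 for Akr1c14. Each remained past the threshold in all 40 fits that left out 1 library and under 6 other settings.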

How the results depend on the processing

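By adjusted p alone, 16 members in WT and 14 in KO kidneys passed for HFD in place of 10 and 9. Leaving out each library in turn gave 8 to 11 members in WT, 9 to 10 in KO, 41 to 42 between tissues and 9 to 11 for the diet effect between tissues, and 0 in each of the other comparisons. No direction of a called value turned in the settings run. Of the named genes called, Hsd3b2 in WT was also lost with no filter (adjusted p = 0.0652) and with the compared groups alone (adjusted p = 0.106), and Aldh3b1 passed in WT with the mean CPM filter. Between tissues, Aldh1a1 lost and Aldh2 gained its call when the 4 groups were averaged. DESeq2, its size factors, no robust estimation and leaving out a8, a9 and a17 gave counts within 1.5 times the reported ones. Why these calls moved was not tested. No paired analysis was possible because the library numbers are not shared between groups. Depth limits Srd5a2 and the Hsd3b genes in aorta, where 5 libraries held 0 to 2 counts.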
